A study of Mus musculus with 6 samples.

Results

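Molecular chaperones and genes of the unfolded protein response were followed in hippocampal cells of HuD transgenic and control mice. The series calls the transgenic animals HuD overexpressors, HuD being an RNA-binding protein of neurons. The set held 41 genes chosen by their known function, with earlier results of these data known. They were cytosolic, mitochondrial and endoplasmic reticulum (ER) chaperones of the Hsp70, Hsp90, Hsp40 and related families, and protein disulfide isomerases. The sensors and transcription factors of the response were also included. A member was measured by the probe sets (groups of short probes against 1 transcript) whose array annotation gives that gene symbol and no other. By this rule 40 of the 41 had a probe set, Hsp90ab1 being not analysed here, and 38 were bright enough to be tested among 14678 tested genes and unnamed probe sets. Pdia4 and Trib3 lay below the brightness limit.

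RNA of isolated cells was measured on 6 Affymetrix arrays from 2 transgenic and 2 control mice. The descriptions call the cells DGCs, an abbreviation taken here as dentate granule cells. In each group, mouse 1 had 1 array and mouse 2 had 2. A tag in some titles, re-LCM, is not explained there and marks transgenic mouse 1, array 1 of transgenic mouse 2 and control mouse 1. All samples carry the same treatment entry, preservation, and the strain, age and sex of the mice, the promoter of the transgene and any pooling are not given in these labels. Both arrays described as control mouse 2 are titled as controls 1 and 2, so titles and descriptions may disagree on that mouse. The probe set of Elavl4, the gene of HuD, gave a log2 difference of -0.33 (95% interval -1.03 to 0.37) between transgenic and control mice, so the overexpression was not visible in it. Whether that probe set reads the transgene's transcript was not examined.

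Chaperones bind unfolded or partly folded proteins and help them fold. In the cytosol, Hsp70 proteins work with Hsp40 partners, which deliver clients, and with nucleotide exchange factors, and heat shock factor switches on the stress-inducible members when unfolded protein builds up. In the ER, unfolded protein releases BiP, the ER Hsp70, from the sensors PERK, IRE1 and ATF6, and these act through ATF4, spliced Xbp1 and cleaved ATF6 on chaperone and degradation genes. Neurons make much membrane and secreted protein in the ER and keep high levels of constitutive chaperones.

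The control sequences by which these branches are known to act were looked for in the RefSeq promoter table (assembly GRCm38.p6), which covers 250 bases before to 50 bases after each gene's start and held 33 of the members. The ER stress element was searched on both strands as CCAAT and CCACG with any 9 bases between them. It lay in the windows of 6 of the 33 members (18.2%), against 0.137% of all 27025 genes in the table. Dnajb9, a target of spliced Xbp1, held no exact match, so a gene without a match can still be a target. The sites are shown because ATF6 and Xbp1 are known to act through this element. Fixed letters are in capitals and each site is read from its CCAAT.
Hspa5 (chr2:34772025-34772043, forward strand): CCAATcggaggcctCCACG
Dnajc3 (chr14:118937827-118937845, forward strand): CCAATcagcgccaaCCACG
Pdia6 (chr12:17266491-17266509, forward strand): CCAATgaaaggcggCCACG
Hsp90b1, upstream site (chr10:86705638-86705656, reverse strand): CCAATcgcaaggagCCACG
Hsp90b1, downstream site (chr10:86705533-86705551, forward strand): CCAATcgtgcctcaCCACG
Calr (chr8:84847075-84847093, forward strand): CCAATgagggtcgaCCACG
Canx (chr11:50325800-50325818, reverse strand): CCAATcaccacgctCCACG

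Hspa5 encodes BiP. The 250 bases before its start (chr2:34771840-34772089, forward strand) are given because BiP stands at the centre of the response, and the element, in capitals, lies 65 to 47 bases before the start.
Hspa5 promoter: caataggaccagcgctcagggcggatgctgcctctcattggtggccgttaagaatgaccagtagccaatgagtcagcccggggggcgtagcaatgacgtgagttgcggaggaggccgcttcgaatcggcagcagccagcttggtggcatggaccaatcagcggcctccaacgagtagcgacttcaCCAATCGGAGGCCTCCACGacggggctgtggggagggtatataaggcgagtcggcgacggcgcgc

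The heat shock element, to which heat shock factor binds, was searched as GAANNTTCNNGAA, which reads TTCNNGAANNTTC on the other strand. It lay in the windows of 4 of the 33 members (12.1%), against 0.662% of all genes in the table. The stress-inducible members Hspa1a, Hspa1b, Hspb1 and Dnajb1 held no exact match. Hspd1 and Hspe1, the mitochondrial chaperonin and its lid, lie head to head. The table gives Hspd1 2 starts on the reverse strand. With the start 216 bases before that of Hspe1, the same 2 overlapping elements fall in the windows of both genes, and the window of the other Hspd1 start, 95 bases beyond that of Hspe1, held 0 elements. The 150 bases before the Hspe1 start (chr1:55087998-55088147, forward strand) show both elements in capitals.
Hspe1 promoter: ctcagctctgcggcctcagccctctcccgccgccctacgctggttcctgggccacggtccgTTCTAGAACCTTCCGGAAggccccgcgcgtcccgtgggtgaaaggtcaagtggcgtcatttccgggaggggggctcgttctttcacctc
The other members with an element follow, with the fixed letters in capitals.
Dnajb6 (chr5:29735852-29735864, forward strand): GAAtcTTCcgGAA
Hsph1 (chr5:149636288-149636300, reverse strand, after the start): TTCtgGAAagTTC

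The amino acid response core, through which ATF4 is known to act, was searched as TGATGNAA on both strands. Herpud1 (TGATGcAA) and Trib3 (TGATGtAA), both on the strand opposite to the gene, held it, 2 of 33 members (6.06%), against 4.51% of all genes. A match is a description of these letters and shows neither binding nor use.

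Between transgenic and control mice the levels of the chaperone and unfolded protein response genes lay close together. None of the 38 tested members passed limma's test at an adjusted p under 0.05, where 0% of all genes tested were called and the smallest adjusted p was 0.999. None reached an unadjusted p under 0.05 in either direction, where 1.76% of all genes did so with higher and 2.55% with lower values in transgenic mice. The log2 differences, transgenic minus control, ran from -0.24 (Hspe1) to 0.45 (Hspb1), with a median of 0.081 over members and 0.0026 over all genes. Of the 38, 25 (65.8%) were higher and 13 lower in the transgenic mice, against 50.5% higher among all genes. The precision allowed a statement on size: for 34 members the 95% interval lay within a 2-fold difference either way, and for 16 within 1.5-fold. Hspb1, Dnajc3, Sdf2l1 and Pdia3 had wider intervals. Every p comes from 2 mice against 2, and the 2 arrays of a mouse count as 1.

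**Figure D1:**
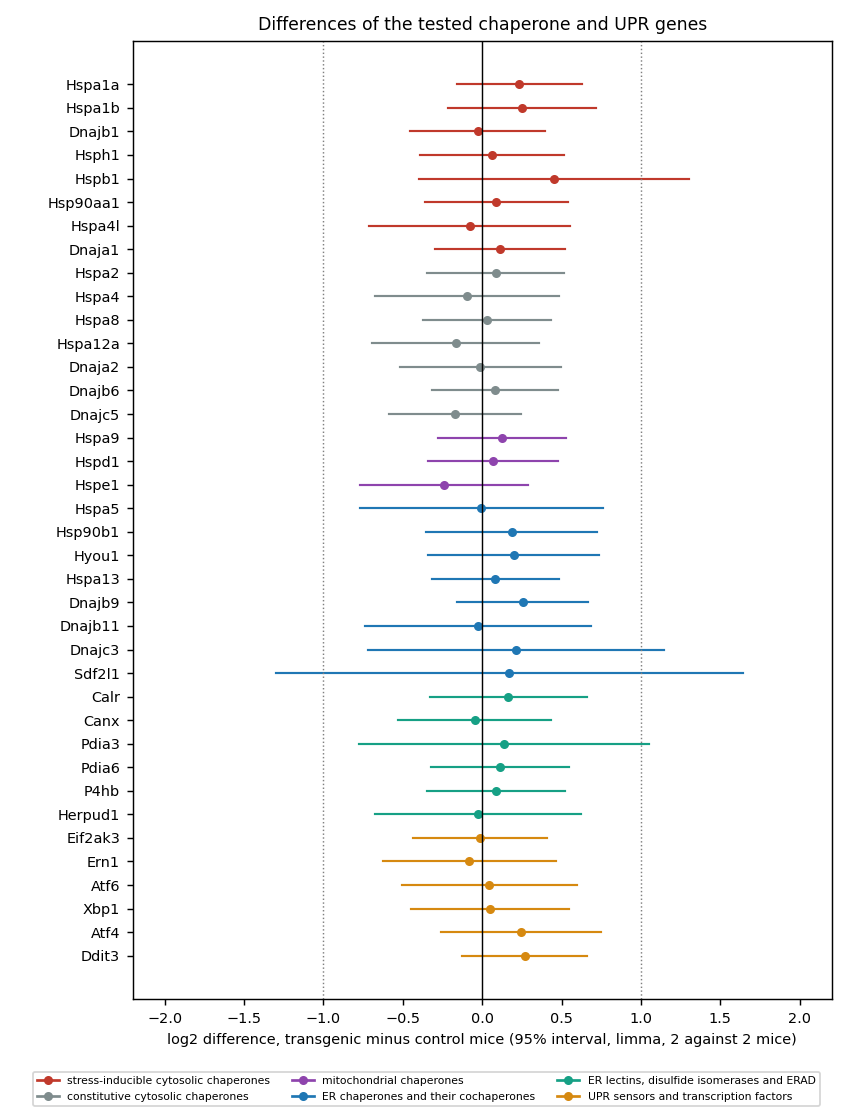
Log2 difference, transgenic minus control mice, for the 38 tested members (points) with 95% intervals of the limma fit on 2 against 2 mice (bars), coloured by role. Dotted lines mark a 2-fold difference, and every interval holds 0.

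The arrays of the 2 groups did not overlap for 3 members, all higher in transgenic mice (7.89% of 38, against 3.86% of all genes tested), and for 0 members in the other direction, against 4.22% of all genes. They were Hspa1a, Dnaja1 and Dnajb9. None of the 3 passed the test.

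The stress-inducible cytosolic chaperones are the genes that heat shock factor raises in stressed cells. Of the 8 tested, 6 were higher and 2 lower in transgenic mice, with a median log2 difference of 0.10. Averaged over the 8 genes as log2 intensity relative to each gene's mean over the 6 arrays, the level was 0.084, 0.055 and 0.045 on the transgenic arrays (mouse 1, mouse 2 array 1, mouse 2 array 2), against -0.095, -0.055 and -0.033 on the control arrays in the same order. The 3 transgenic arrays all lay above the 3 control arrays, by small amounts and only with Hspb1 included. Without that gene, a choice made after the values were seen, the levels were 0.103, 0.039 and -0.013 on the transgenic arrays, against -0.004, -0.092 and -0.032 on the control arrays, and the groups overlapped.

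Hspa1a, the inducible Hsp70, had intensities of 388, 413 and 382 in transgenic mice, against 336, 306 and 359 in control mice. Every transgenic array was above every control array. The log2 difference was 0.23 (SE 0.15, 95% interval -0.16 to 0.63, limma adjusted p = 0.999). Its near-identical copy Hspa1b had 1435, 1630 and 1296 in transgenic mice, against 1345, 1081 and 1116 in control mice, a log2 difference of 0.25 (SE 0.18). Here the lowest transgenic array lay below the highest control array. Since both genes encode almost the same transcript, their probe sets may read each other's RNA and are not separate evidence. The 2 further Hspa1b probe sets above the brightness limit gave 0.20 and 0.15.

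Dnaja1, an Hsp40 partner of Hsp70, had 6044, 6002 and 6004 in transgenic mice, against 5339, 5910 and 5710 in control mice. The transgenic arrays were nearly equal and all above the control arrays, but the log2 difference was only 0.11 (SE 0.15). Its 2 further probe sets gave 0.13 and 0.040, in both cases with overlapping arrays. Dnajb1, the Hsp40 most often used to read the heat shock response, had 1624, 1808 and 1730 in transgenic mice, against 1653, 1865 and 1757 in control mice. The groups interleaved, with a log2 difference of -0.03 (SE 0.16).

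Hspb1, the small heat shock protein Hsp27, was the member with the highest positive difference. Its intensities were 57.1, 66.2 and 80.7 in transgenic mice, against 35.7, 67.9 and 57.5 in control mice. The array of control mouse 1 was the lowest of the 6, and among the other 5 the groups overlapped. The difference of 0.45 (SE 0.32, 95% interval -0.40 to 1.30) was 0.047 without control mouse 1 and 0.86 without control mouse 2. Hsph1, an Hsp110 exchange factor, had 3642, 3004 and 3227 in transgenic mice, against 3088, 3346 and 3394 in control mice, and Hsp90aa1, the inducible Hsp90, had 8036, 6958 and 6481, against 6857, 7257 and 6651. In both the groups overlapped, with log2 differences of 0.06 (SE 0.17) and 0.09 (SE 0.17). Hspa4l, another Hsp110 family member, gave -0.08 (SE 0.24).

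The constitutive cytosolic chaperones carry out folding and vesicle work in unstressed neurons. Of the 7 tested, 3 were higher and 4 lower in transgenic mice, with a median of -0.01, and in none did the arrays of the 2 groups separate. Hspa8, the constitutive Hsp70 Hsc70, had 13857, 14547.5 and 12304 in transgenic mice, against 13003, 14955.5 and 12503 in control mice. The groups overlapped fully, and the 95% interval of its difference, 0.03, ran from -0.37 to 0.43. Dnajc5 encodes cysteine string protein, the Hsp40 of synaptic vesicles. Its brightest probe set had 3596, 3507 and 3089 in transgenic mice, against 4003, 4142 and 3380 in control mice, a log2 difference of -0.17 (SE 0.16). Its 3 further probe sets above the brightness limit gave 0.19, 0.05 and -0.05, so the 4 differed in sign. For Hspa4, an Hsp110 family member, the brightest probe set gave -0.10 (SE 0.22), and the 2 further ones above the brightness limit gave -0.32 and -0.34. Hspa12a, a distant Hsp70 relative, gave -0.17 (SE 0.20). The remaining 3, Hspa2, Dnaja2 and the Hsp40 Dnajb6, lay between -0.01 and 0.08.

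Among the mitochondrial chaperones, 2 were higher and 1 was lower. Hspa9, the mitochondrial Hsp70, gave 0.13 (SE 0.15). Hspd1 and Hspe1, with the elements shown above, gave 0.07 (SE 0.16) and -0.24 (SE 0.20). Hspe1 had 466, 599 and 628 in transgenic mice, against 608, 719 and 596 in control mice, so the groups overlapped and the array of transgenic mouse 1 was the lowest. Without transgenic mouse 1 its difference was -0.040, and its second probe set gave 0.05. The difference between Hspd1 and Hspe1 itself was not tested.

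**Figure D2:**
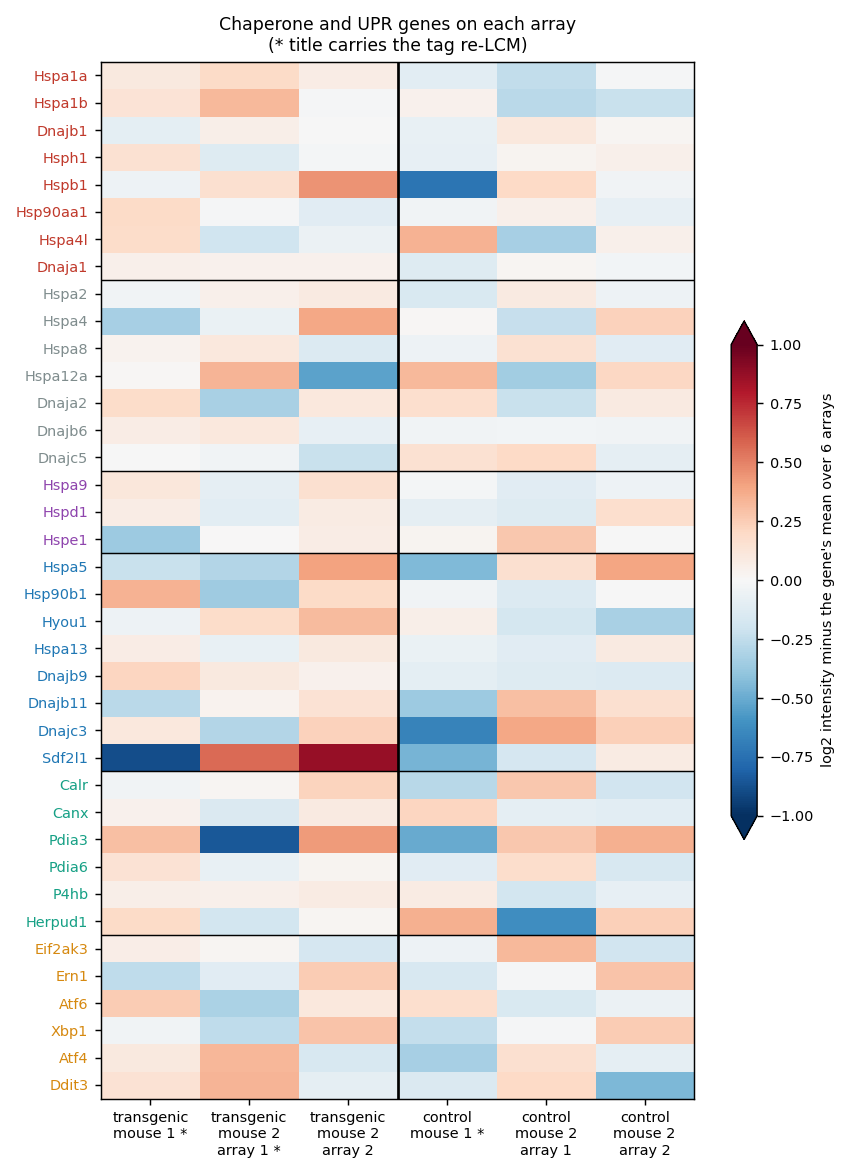
Log2 intensity of the 38 tested members on each of the 6 arrays, relative to the gene's mean over the arrays (red higher, blue lower), with transgenic arrays on the left, control arrays on the right, and gene names coloured by role as in the plot of differences. Hspa5 and Dnajc3 are lower on the 3 arrays marked as re-LCM than on the other 3, and most genes vary among the arrays of a group as much as between groups.

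The ER chaperones and their Hsp40 cochaperones fold secreted and membrane proteins and are the classical targets of the unfolded protein response. Of the 8 tested, 6 were higher and 2 lower in transgenic mice, with a median of 0.18. Dnajb9, the cochaperone ERdj4 and a target of spliced Xbp1, had 1306, 1207 and 1159 in transgenic mice, against 1055, 1032 and 1024 in control mice. All transgenic arrays lay above all control arrays, with a log2 difference of 0.26 (SE 0.16, 95% interval -0.16 to 0.67, limma adjusted p = 0.999). When each mouse or array was left out in turn it stayed between 0.18 and 0.33.

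Hspa5, or BiP, had 2015, 1926 and 3118 in transgenic mice, against 1740, 2634 and 3097 in control mice. The groups covered the same range, and the log2 difference was -0.0048 (SE 0.29, 95% interval -0.77 to 0.76). It was -0.36 without control mouse 1 and 0.35 without control mouse 2. The lower values of BiP were on the arrays tagged re-LCM, described further on. Hsp90b1, the ER Hsp90 known as GRP94, had 1633, 1003 and 1471 in transgenic mice, against 1253, 1170 and 1281 in control mice. The lowest and the 2 highest values were all transgenic, and the log2 difference was 0.19 (SE 0.21).

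Hyou1, the ER Hsp110 exchange factor, had 1867, 2184 and 2400 in transgenic mice, against 2006, 1705 and 1537 in control mice. Only the array of transgenic mouse 1 lay below the highest control array, and the log2 difference was 0.20 (SE 0.21). Sdf2l1, an ER protein bound to chaperone complexes, had 17.9, 48.7 and 60.2 in transgenic mice, against 23.8, 29.4 and 34.9 in control mice. Both mice of the transgenic group stood at opposite ends, and its difference of 0.17 (SE 0.56) was 0.97 without transgenic mouse 1 and -0.63 without transgenic mouse 2. Dnajc3, the cochaperone and PERK inhibitor P58IPK, had 252, 191 and 274 in transgenic mice, against 147, 306 and 276 in control mice. Its difference of 0.21 (SE 0.36) was -0.28 without control mouse 1 and 0.70 without control mouse 2. Hspa13 gave 0.08 (SE 0.15) and the Hsp40 Dnajb11 -0.03 (SE 0.27).

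The ER lectins, disulfide isomerases and degradation factors gave 4 higher and 2 lower members of 6 tested, with a median of 0.10 and no group separated. Calr, the lectin chaperone calreticulin, had 3144, 3258 and 3742 in transgenic mice, against 2649, 3874 and 2809 in control mice. The highest array was a control and the next was transgenic, with a log2 difference of 0.16 (SE 0.19). Its membrane-bound partner Canx, calnexin, gave -0.05 (SE 0.18). Its dimmest tested probe set had 26.4, 29.0 and 30.8 in transgenic mice, against 39.6, 41.0 and 36.1 in control mice, a difference of -0.48 close to the brightness limit that the 2 brighter Canx probe sets did not show. Pdia3, Pdia6 and P4hb, which form and rearrange disulfide bonds, gave 0.14 (SE 0.35), 0.11 (SE 0.17) and 0.09 (SE 0.17). Herpud1, a membrane protein of ER-associated degradation, gave -0.03 (SE 0.25), and its second probe set gave -0.78 with 1 low array, 42.8 in transgenic mouse 1. Pdia4 was not in the tested set. In a fit without the brightness limit it gave 0.67 (SE 0.48), with 41.3, 48.0 and 29.7 in transgenic mice, against 36.5, 28.3 and 9.63 in control mice, the last at or under the floor of 10.1 below which intensities were not read. The second Pdia4 probe set, with 4 arrays at the floor, gave -0.39.

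Among the sensors and transcription factors, 4 were higher and 2 lower in transgenic mice of 6 tested, with a median of 0.05. The 3 sensors lay near 0: Eif2ak3, which encodes PERK, gave -0.01 (SE 0.16), Ern1, which encodes IRE1, gave -0.08 (SE 0.21), and Atf6 gave 0.05 (SE 0.21). Xbp1, whose mRNA IRE1 splices, had 2349, 2020 and 2945 in transgenic mice, against 2048, 2386 and 2869 in control mice, with full overlap and a difference of 0.05 (SE 0.19). Spliced and unspliced Xbp1 were not told apart, and cleavage of ATF6 and phosphorylation of PERK are not measured by expression arrays.

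Ddit3, the transcription factor CHOP, downstream of ATF4, had the smallest unadjusted p of the members, 0.138. Its intensities were 143, 164 and 122 in transgenic mice, against 118, 149 and 94.99 in control mice. The groups overlapped on the array level, while the averages per mouse did not, with mean log2 values of 7.16 ± 0.011 in transgenic mice and 6.89 ± 0.010 in control mice (SD, n = 2 each). The log2 difference was 0.27 (SE 0.15, 95% interval -0.13 to 0.66, limma adjusted p = 0.999). Without array 2 of control mouse 2 it was 0.11, and without array 1 of that mouse it was 0.43. Atf4 had 3273, 3847 and 2733 in transgenic mice, against 2422, 3410 and 2864 in control mice. The groups overlapped, and the difference of 0.24 (SE 0.19) was 0.060 without control mouse 1. Trib3, a pseudokinase induced through ATF4 and CHOP, was not in the tested set, and its brightest probe set pointed the other way. It had 18.8, 31.3 and 13.3 in transgenic mice, against 26.9, 45.4 and 31.0 in control mice. The difference was -0.70 (SE 0.22, limma adjusted p = 0.789 in the fit without the brightness limit). The second Trib3 probe set, with 2 arrays at the floor, gave 0.05.

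**Figure D3:**
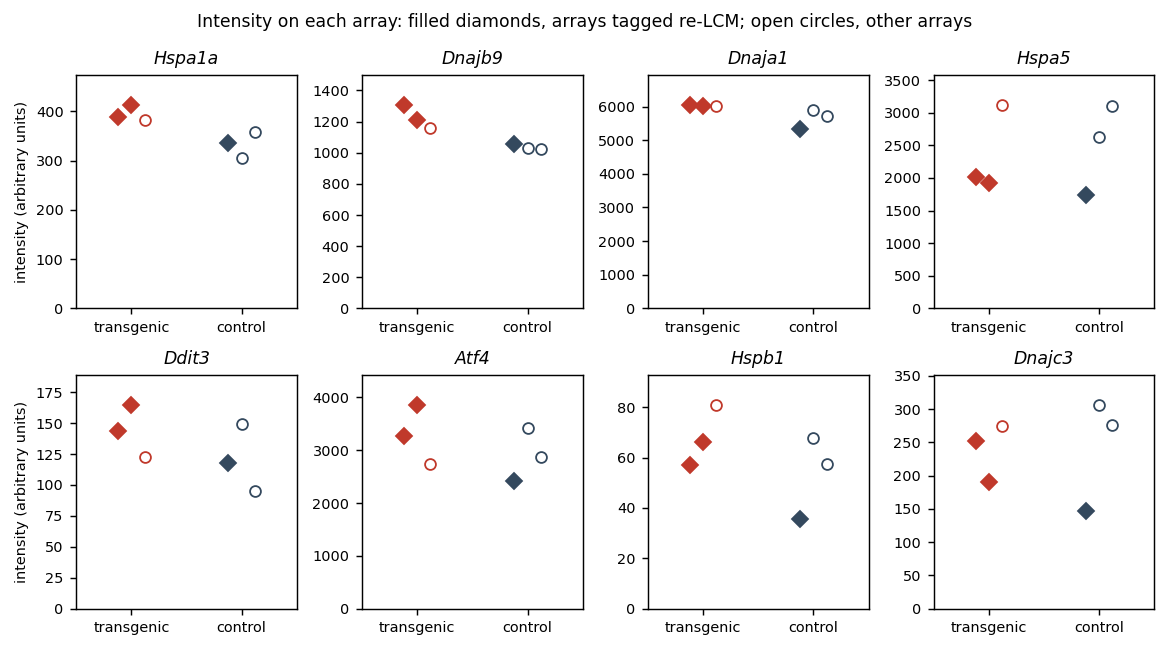
Intensity of 8 members on each array, in arbitrary units from 0, with the 3 transgenic arrays left and the 3 control arrays right in each panel. Filled diamonds are the arrays tagged re-LCM and open circles the others. Hspa1a, Dnajb9 and Dnaja1 do not overlap between groups, and Hspa5 is lower on the 3 tagged arrays than on the 3 others.

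Several members have more than 1 probe set, which shows how far a difference depends on the probes. Of the 38, 26 had further probe sets above the brightness limit, 48 in all. Of these 48, 25 had the same sign as the brightest probe set of their gene and 23 had the other sign. Their differences ran from -0.78 (Herpud1) to 0.82 (Hyou1). Probe sets whose names end in _s_at or _x_at may also read related transcripts.

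Members with an element were set beside members without one for the ER stress element, by exact match only, which does not sort targets from other genes. Of the 6 members with an ER stress element, 4 were higher and 2 lower in transgenic mice, and of the 6 tested ER members with a promoter in the table and no element, 4 were higher and 2 lower.

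The wider folding network was described from 8 further lists. None of their genes passed limma's test at an adjusted p under 0.05. At a limma unadjusted p under 0.05, 1.76% of all genes tested were higher and 2.55% lower in transgenic mice. In the further lists, Eif2ak4 (1 of 13 signalling genes) and Atf3 (1 of 29 ATF4 target genes) were higher at that limit. Hspb8 (1 of 30 cytosolic chaperones and cochaperones) and Edem1 (1 of 24 ER-associated degradation genes) were lower. The remaining further lists had 0 in either direction. Of 30 tested cytosolic chaperones and cochaperones, 15 were higher and 15 lower in transgenic mice. Hspb8, a small heat shock protein that acts with Bag3, had 56.3, 47.2 and 39.0 in transgenic mice, against 74.0, 78.2 and 67.7 in control mice, a difference of -0.58 (SE 0.20) with no overlap, opposite in sign to Hspb1. Of the 14 subunits of TRiC, the cytosolic chaperonin, and of prefoldin, which hands it clients, 11 were higher and 3 lower, with a median of 0.059 and Pfdn5 leading at 0.41 (SE 0.19). Of 4 listed genes of heat shock factors and their regulation, 2 were tested. Hsf2, a heat shock factor, gave -0.30 (SE 0.42), and Hsbp1, a negative regulator of such factors, gave 0.24 (SE 0.15). Hsf1 and Hsf4 were not in the tested set.

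Of 12 genes of mitochondrial folding and proteolysis, 10 were higher and 2 lower, with a median of 0.20, and Clpx, the unfoldase of the Clp protease, gave 0.41 (SE 0.18). Their mean relative log2 level was 0.108, 0.063 and 0.083 on the transgenic arrays, against -0.068, -0.127 and -0.057 on the control arrays. Of 30 further ER folding enzymes, 11 were higher and 19 lower, with a median of -0.06 and mean relative levels of -0.012, -0.100 and -0.064 on the transgenic arrays, against 0.014, 0.092 and 0.070 on the control arrays. In both lists the arrays of the groups did not overlap, in opposite directions, and in the other further lists they overlapped. How often lists of such sizes separate was not tested. Fkbp7, a prolyl isomerase, gave -0.45 (SE 0.20) and the disulfide isomerase Pdia5 -0.39 (SE 0.18). Of 24 genes of ER-associated degradation, 13 were higher and 11 lower. Edem1, which directs misfolded glycoproteins to degradation, gave -0.66 (SE 0.24).

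Of 13 tested genes of unfolded protein response signalling, 7 were higher and 6 lower in transgenic mice. Eif2ak4, the amino acid sensor kinase GCN2, which like PERK acts on eIF2α, had 120, 84.0 and 131 in transgenic mice, against 70.3, 91.9 and 64.9 in control mice. Its difference was 0.60 (SE 0.17, limma adjusted p = 0.999), and 1 transgenic array lay below the highest control array. Ppp1r15a, the phosphatase subunit GADD34 that reverses eIF2α phosphorylation, gave 1.28 (SE 0.75), with 1 control array under the floor. Of 29 ATF4 target genes, 13 were higher and 16 lower. Atf3, a stress-inducible transcription factor, had 75.7, 71.3 and 88.0 in transgenic mice, against 34.9, 36.5 and 41.5 in control mice. All 3 transgenic arrays were above all control arrays, with a difference of 1.07 (SE 0.16, limma adjusted p = 0.999 over all genes). The amino acid transporter subunits Slc3a2 and Slc7a5 gave 0.34 (SE 0.16) and 0.54 (SE 0.25).

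The arrays tagged re-LCM were compared with the other 3 arrays in a fit with the group as a second term, in which each array counts as a sample although some share a mouse. In the controls the tag cannot be told apart from the mouse, since control mouse 1 is tagged and both arrays of control mouse 2 are not. Only transgenic mouse 2 has both a tagged and an untagged array. No member passed at an adjusted p under 0.05, and 0% of all genes did, with a smallest adjusted p of 0.937. Of the 38 members, 18 were higher and 20 lower on tagged arrays. At an unadjusted p under 0.05, 3 members (7.89%) were lower on tagged arrays, against 2.78% of all genes, and 0 were higher, against 2.36% of all genes. Tagged and untagged arrays did not overlap for 5 members that were lower on tagged arrays (13.2%), against 6.17% of all genes, and for 1 that was higher (2.63%), against 5.55%. The 5 were Hspa5, Dnajb11, Dnajc3, Ern1 and Xbp1, and the 1 was Hspa1b. By role, the 5 were 3 of 8 tested ER chaperones and cochaperones and 2 of 6 sensors and transcription factors. Of the 6 tested ER lectins, disulfide isomerases and degradation factors, 0 separated. Pdia4, an ER member too dim for the tested set, separated the other way, with a tag difference of 0.85 in a fit without the brightness limit.

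Hspa5 had 2015 and 1926 on the tagged transgenic arrays and 1740 on the tagged control array, against 3118 on the untagged transgenic array and 2634 and 3097 on the untagged control arrays. The log2 difference, tagged minus untagged, was -0.69 (95% interval -1.09 to -0.29, limma unadjusted p = 0.00573, adjusted p = 0.937). It was present within 1 animal: transgenic mouse 2 had 1926 on its tagged array and 3118 on its other array. The further probe sets of Hspa5 gave tag differences of -0.54 and -0.12, the last with 903, 897 and 757 on tagged arrays, against 909, 842 and 920 on the others, which overlap. Hspb1 gave -0.60 (limma unadjusted p = 0.020) and Dnajc3 -0.65 (limma unadjusted p = 0.029). The further Dnajc3 probe sets above the brightness limit gave -0.33 and -0.098, with overlapping arrays. Xbp1 had 2349 and 2020 on the tagged transgenic arrays and 2048 on the tagged control array, against 2945 on the untagged transgenic array and 2386 and 2869 on the untagged control arrays, a difference of -0.39. The further Xbp1 probe sets gave -0.25 without overlap, and -0.04 and -0.37 with overlapping arrays. Dnajb11 gave -0.43 and Ern1 -0.36. Without control mouse 1, no member reached an unadjusted p under 0.05 for the tag. Of the 6 members with an ER stress element, 5 were lower on tagged arrays, with differences from -0.69 (Hspa5) to 0.09 (Canx) over the 6. Among those lower, Pdia6 and Hsp90b1 were near 0, at -0.06 and -0.08. Of the 6 ER members without an element, 3 were lower, and of all genes tested 50.8% were. Whether the element has a part in this was not tested.

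**Figure D4:**
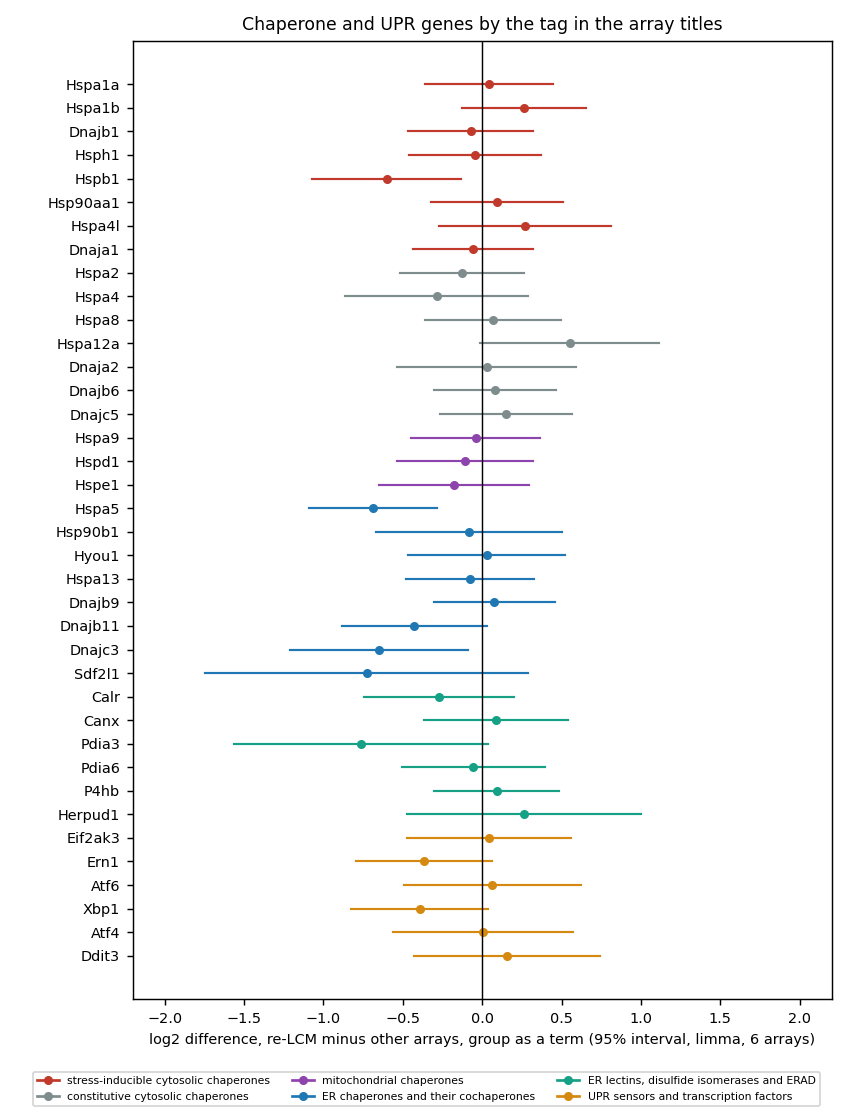
Log2 difference, arrays tagged re-LCM minus the other arrays, for the 38 tested members (points) with 95% intervals of a limma fit on 6 arrays with group as a term (bars), coloured by role. The intervals of Hspb1, Hspa5 and Dnajc3 lie below 0, and those of the other members hold 0.

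Within the tagged arrays (2 transgenic, 1 control) and within the other arrays (1 transgenic, 2 control), 18 members were higher and 3 lower in the transgenic mice in both, and 17 had opposite signs. Within the tagged arrays 27 members were higher, with a median of 0.10, and within the others 26, with a median of 0.11. The 2 arrays of a mouse also differed: array 2 minus array 1 had a median absolute log2 difference of 0.20 over the members in transgenic mouse 2 and 0.23 in control mouse 2, where the difference between the groups had a median SE of 0.19. In transgenic mouse 2, 26 of 38 members were higher on the untagged array. In control mouse 2, where neither array is tagged, 19 of 38 were higher on array 2. The share over all genes was not computed.

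The capture was checked by markers fixed with the gene lists. All 8 granule cell markers were tested (2 higher, 6 lower in transgenic mice), with Dsp and Calb1 the brightest, and their summed intensity was 23650 to 24710 on transgenic arrays and 24070 to 27030 on control arrays. Their mean relative log2 level was -0.057, -0.055 and -0.071 on the transgenic arrays, against -0.027, 0.149 and 0.061 on the control arrays, so on this scale the transgenic arrays were all below the control arrays. Markers of other cells were present too, and fewer cells of a type and less RNA per cell cannot be told apart in such samples. The 11 oligodendrocyte markers with a probe set, led by Mbp and Cnp, summed to 5638 to 8373 on transgenic arrays and 4877 to 12370 on control arrays, the highest being control mouse 1, and all 9 tested were lower in transgenic mice. All 7 tested of 11 microglia markers were also lower, with sums of 3092 to 3844 and 3294 to 4597, and so were 9 of 10 tested astrocyte markers of 11, with sums of 9683 to 13140 and 10780 to 16500. The 10 interneuron markers (2 tested higher, 8 lower), mostly Gad1 and Cck, summed to 3494 to 3783 and 2996 to 3716. The 7 pyramidal cell markers (3 of 5 tested higher) summed to 2247 to 2748 and 2158 to 2871, mostly from Nr3c2 (1869 to 2246 and 1847 to 2453). The 8 vascular markers (2 of 5 tested higher), mostly Slc2a1, summed to 1019 to 1333 and 977 to 1258, each transgenic first, with Pecam1 at or under the floor on all arrays. The interneuron, pyramidal cell and vascular sums thus read mainly those genes. Whether such genes are particular to the cell type in these samples was not tested. The 4 choroid plexus markers, mostly Ttr, summed to 823 and 17510 on the tagged transgenic arrays and 12060 on the tagged control array, against 1161 on the untagged transgenic array and 233 and 372 on the untagged control arrays. Control mouse 1, which had the lowest values of Hspb1, Dnajc3 and Hspa5, thus stood apart in oligodendrocyte markers and shared high Ttr with the tagged array of transgenic mouse 2. The part of these cell types in the differences of the chaperone genes was not tested.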

How the data were processed

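The authors deposited linear probe set intensities for 45101 probe sets on 6 arrays, scaled so that the 2% trimmed mean is 150.001 on each; the program behind them and its background correction were not given in the sources used here. The 64 control probe sets were left out. Intensities under the pooled 25th percentile (10.07) were set to it and log2 was taken. Probe sets with a mean log2 above the median of all (4.92) were kept, 1 per gene, that of the highest mean, giving 14678 tested items. The 2 arrays of a mouse were averaged. limma 3.58.1 (R 4.3.3; lmFit, then eBayes) compared 2 transgenic with 2 control mice, and p-values were adjusted by Benjamini and Hochberg's method over all items, with a threshold of 0.05. The tag re-LCM was fitted beside the group over 6 arrays. The fit was also run on simulated data drawn as 6 independent arrays, without variation between mice, so that run cannot speak for its precision here. Per array, 23.9% to 26.4% of probe sets were at this floor or below, and the number of mice limits the precision.

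Genes took their names from the platform annotation: 34945 probe sets had 1 symbol, 932 several and 9160 none. Promoters came from RefSeq (GRCm38.p6) and were read with Python 3.11.15. The members and the gene lists were chosen with earlier results of these data known. Any member could be named; of each further list up to 3 genes of smallest p, of marker lists the 2 brightest, with Pecam1 named in addition after its values were seen. Members given on every array were those of smallest p and leading members of each role. Alternatives changed normalization, floor, filter, probe set choice, replication unit, variance model, replicate block, tag and the mice or arrays included. The mouse numbers are counts within a group and pair no animals. A planned description of protein ends was not made.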

Additional observations from a re-analysis of the deposited data

How the results depend on the processing

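No member passed the limma test with Benjamini-Hochberg adjustment under any alternative, the smallest adjusted p being 0.644 without the filter on dim probe sets. The count of members at an unadjusted p under 0.05, 0 in the reported fit, was 2 without the filter (Hspa1a and Ddit3), 1 with the mean over probe sets (Hyou1), 1 with the tag re-LCM as a term (Hspb1) and 0 to 2 when 1 mouse or array was left out. The median difference over members, 0.081, was 0.032 with the 6 arrays as separate samples, and between 0.049 and 0.11 over the leave-outs. Between 23 and 31 members were higher in transgenic mice. Over all genes, 1 gene was called with a variance trend and robust fit, Edil3, which is no member. With the mouse number as a replicate block, 0 members were called, 25 were higher, the median was 0.081 and the smallest unadjusted p was 0.0942 (Hspb1); the deviations of mouse 1 of the 2 groups correlated at 0.033 over all genes and 0.295 over the members, the labels pair no animals, and the block changed no call. Over 19 settings each, 12 members kept their sign (among them Hspa1a, Hspa1b, Dnajb9, Dnaja1 and Ddit3) and 26 changed it at least once. Of the member values, 661 moved by at most 1 SD between the mice of a group and 61 by more. The replicate block, the variance trend and robust fit and the fit without the filter leave a member's difference unchanged. Leaving out a whole mouse cannot move it by more than 1 SD. The 661 therefore include values that could not have moved further, and the tally does not measure stability. The cause of the sign changes was not tested. For the tag, 3 members were lower at a limma unadjusted p under 0.05. When each array was left out in turn, the lower count ran from 0 (without control mouse 1) to 4. The alternatives added after the data were seen were quantile normalization, with 3 lower, and the floor at the pooled median, with 4 lower. Pdia4 and Trib3 were too dim for the tested set, and Pdia4 had 1 array at the floor.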
